A study of Mus musculus with 8 samples.

Results

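The 10 HSP70 and HSP90 genes described here encode the main chaperones of the mouse cytosol, their counterpart in the endoplasmic reticulum, and the forms that male germ cells add. They were picked by symbol from the 23235 gene symbols of the deposited expression files: the testis chaperones Hspa2, Hspa1l and Hspa4l, and the general counterparts Hspa8, Hspa4, Hspa5, Hspa1a, Hspa1b, Hsp90aa1 and Hsp90ab1. All 10 were found, and all 10 passed the filter on low values, Hspa1a only through Cnot4-null libraries. The samples are spermatocytes of C57BL/6 males, either wild type (WT) or lacking Cnot4 (labelled Cnot4-KO, called Cnot4-null here), at 2 stages of meiotic prophase: LZ, leptotene and zygotene, and PD, pachytene and diplotene. Each of the 4 groups has 2 libraries, numbered by replicate. The study describes the Cnot4-null males as Cnot4 fl/fl;Stra8-Cre, so that Cre runs from a promoter active in germ cells around their entry into meiosis, and the floxed exon is one whose loss shifts the reading frame. Its methods sort cells of young adult testes by Hoechst and propidium iodide fluorescence. The sample labels give TruSeq libraries from Trizol total RNA where the methods describe Smart-Seq2 libraries of sorted cells, and nothing in the expression files tells these apart.

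HSP70 proteins hold unfolded stretches of other proteins in a cycle of ATP binding and release, which HSP40 proteins start and nucleotide exchange factors of the BAG and HSP110 families end. HSP90 takes many of these clients further, with co-chaperones that set which kinases, receptors and other proteins reach it. Male germ cells add members of their own to this general set: HSPA2, which sits on the synaptonemal complex, binds CDK1 and is needed for male meiosis, HSPA1L of the haploid stages, and HSPA4L, an HSP110-type exchange factor of germ cells. CNOT4 is a ubiquitin ligase that joins the CCR4-NOT complex, which shortens the poly(A) tails of mRNA.

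Levels are FPKM, the RNA fragments assigned to a gene divided by transcript length and by the mapped total of the library. Comparisons between genes within a library also rest on how much of each transcript is read uniquely, which differs between these genes. Comparisons between libraries also rest on how these are scaled. Differences are log2 fold changes of FPKM plus 1, which understate the change of a gene near or below 1 FPKM. A gene was called when limma gave it an adjusted p under 0.05 over all 15899 genes above 1 FPKM in at least 1 library. The libraries of a group are called biological replicates, and the p-values measure only the spread between these 8 libraries. The expression files hold no read counts. Total reads per library stand in the study's supplement and were not used here. As bulk measurements, these values cannot tell fewer cells of a type from less RNA per cell.

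Cnot4 itself read 36.0 and 34.9 FPKM at LZ and 76.6 and 73.1 at PD in WT, and 43.2 and 34.6 at LZ and 65.9 and 53.5 at PD in Cnot4-null. The genotypes overlap at LZ, and at PD both Cnot4-null libraries lie below both WT libraries, a difference of -0.33 that was not called (adjusted p 0.192). A single value per gene cannot show the loss of an exon, so these levels do not test the genotype.

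The genes differ in how far their RNA can be read apart from that of relatives, and this sets how firmly each value can be taken. By the GENCODE positions on the mm9 build, Hspa1b, Hspa1a and Hspa1l lie together on chromosome 17, with 9960 bases between Hspa1b and Hspa1a, and 578 bases between the 5′ ends of Hspa1a and Hspa1l, which point away from each other. Hspa1a and Hspa1b, the stress-inducible HSP70 genes, are single-exon copies of each other: 1545 of the 1877 coding windows of 50 bases in Hspa1a (82.3%) also occur in Hspa1b, and 232 (12.4%) in Hspa1l. No coding window is shared between Hspa2 and Hspa8, between Hspa4 and Hspa4l, or between Hsp90aa1 and Hsp90ab1. Over the whole transcript, 75.7% of the windows of Hspa8 and 73.1% of those of Hsp90aa1 recur elsewhere in the genome, beside 61.0% for Hspa1a, 62.3% for Hspa1b, 9.58% for Hspa1l, 8.30% for Hsp90ab1, 0.753% for Hspa4l and 0 for Hspa2, Hspa4 and Hspa5. The study's methods kept only reads that mapped uniquely, so Hspa1a, Hspa1b, Hspa8 and Hsp90aa1 are read from their other windows, and what this does to their FPKM was not tested.

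Promoters of 7 of the 10 genes are in the RefSeq table (GRCm38.p6), and the 150 bases before the start are printed, 5′ to 3′ on the strand of the gene, for the 3 genes of the chromosome 17 cluster, for their shared sequence, and for Hspa2 and Hspa4l, the testis genes that rose at PD in WT. Hspa1a lies at chr17:34972157-34972306 (minus strand), Hspa1b at chr17:34959239-34959388 (minus), Hspa1l at chr17:34972553-34972702 (plus), Hspa2 at chr12:76404220-76404369 (plus) and Hspa4l at chr3:40745463-40745612 (plus). Capitals mark matches to the motifs searched.
Hspa1a: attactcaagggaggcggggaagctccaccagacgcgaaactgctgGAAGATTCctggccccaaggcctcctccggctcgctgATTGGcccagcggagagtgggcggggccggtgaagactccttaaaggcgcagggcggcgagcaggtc
Hspa1b: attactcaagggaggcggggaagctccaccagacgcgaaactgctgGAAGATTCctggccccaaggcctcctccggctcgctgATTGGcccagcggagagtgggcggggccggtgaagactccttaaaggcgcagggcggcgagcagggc
Hspa1l: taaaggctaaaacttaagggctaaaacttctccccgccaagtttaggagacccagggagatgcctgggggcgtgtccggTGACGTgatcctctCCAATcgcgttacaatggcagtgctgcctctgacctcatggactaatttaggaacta
Hspa2: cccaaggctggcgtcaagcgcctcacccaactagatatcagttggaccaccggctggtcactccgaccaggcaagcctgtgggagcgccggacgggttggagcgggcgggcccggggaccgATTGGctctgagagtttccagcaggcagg
Hspa4l: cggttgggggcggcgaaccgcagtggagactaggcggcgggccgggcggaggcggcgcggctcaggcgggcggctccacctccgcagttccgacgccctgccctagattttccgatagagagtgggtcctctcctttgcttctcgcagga
Each motif was searched on both strands over the 250 bases before the start. Hspa1a and Hspa1b differ at 3 of these 250 positions and at 1 of the nearest 150, and both hold GAAGATTC, a match to the heat shock element GAANNTTC, from -104 to -97, and an inverted CCAAT box, ATTGG, from -67 to -63. Hspa1l has instead a core of the cyclic AMP response element, TGACGT, from -71 to -66 and CCAAT from -57 to -53, while Hspa2 has only ATTGG from -29 to -25. Hspa4 and Hspa4l have no match, which says only that these letters are not in this window. Of 32851 promoters of the same length, 6.69% hold GAANNTTC, 7.17% the other order TTCNNGAA, 12.8% either, 6.47% TGACGT, 33.9% CCAAT and 12.4% TATAAA, which none of the 7 has. A match is a description of the sequence and not evidence that a factor binds there.

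Together the 10 genes made up a pool whose size varied less than its make-up: their FPKM summed to 4431 and 3613 at LZ and 4634 and 4643 at PD in WT, and 5659 and 4189 at LZ and 4447 and 2950.1 at PD in Cnot4-null. The lowest sum is that of Cnot4-null PD replicate 2, and the other PD libraries lie within the range of the LZ libraries. The 3 testis genes held 2.56% and 2.95% of the pool at LZ and 18.3% and 18.7% at PD in WT, and 2.67% and 2.07% at LZ and 14.5% and 10.5% at PD in Cnot4-null. The PD libraries of both genotypes are above all LZ libraries, and Cnot4-null PD lies below WT PD. The shares are outside the limma fit, and no test of them was run. They also rest on how much of each transcript is read uniquely. An exact two-sided permutation test of 2 libraries against 2 can give no p below 0.33.

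**Figure D1:**
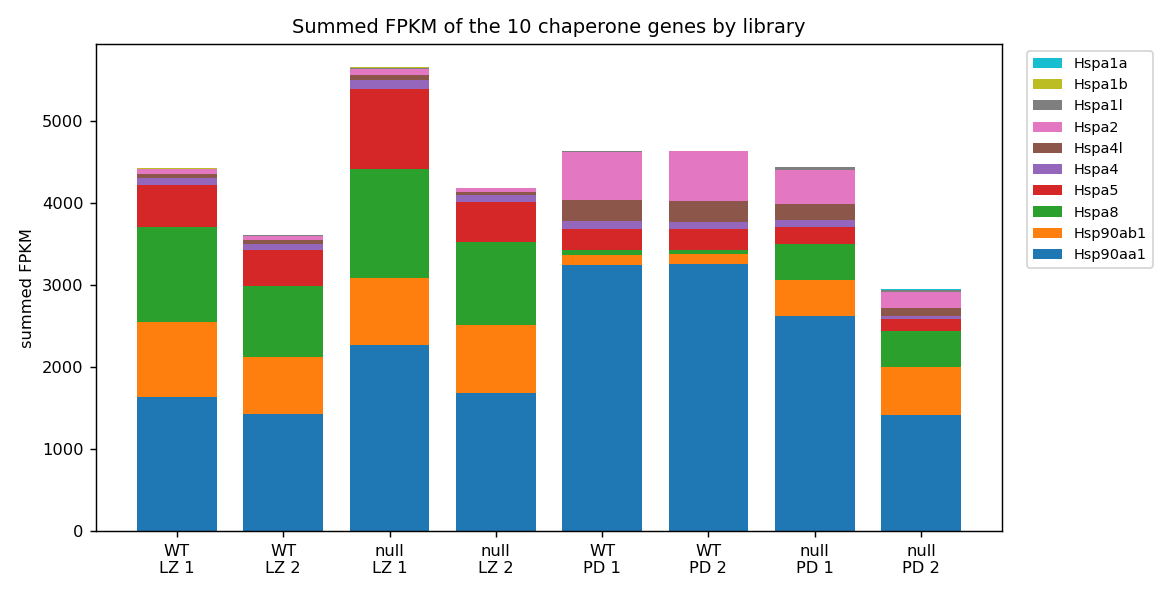
Summed FPKM of the 10 chaperone genes (vertical axis, linear) in each of the 8 libraries, each bar stacked by gene. Hsp90aa1 is the deepest layer everywhere, from 37.0% of the bar in WT LZ replicate 1 to 70.3% in WT PD replicate 2, and the Hspa8 layer thins to 1.52% and 1.16% in the WT PD libraries.

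Hsp90aa1 was the most abundant of the 10 genes in all 8 libraries. In WT LZ it was followed by Hspa8 and Hsp90ab1, whose libraries overlap, then by Hspa5, Hspa4, Hspa2, Hspa4l, Hspa1b, Hspa1l and Hspa1a, each with both libraries above both of the next. In WT PD the order behind Hsp90aa1 was Hspa2, Hspa4l, Hspa5, Hsp90ab1, Hspa4, Hspa8 and Hspa1l, again without overlap between neighbours, and last Hspa1b and Hspa1a, which overlap. Hspa8 thus went from the upper end of the order to below Hspa4, and Hspa2 and Hspa4l from the lower part to directly behind Hsp90aa1. This order is of FPKM as deposited. Of Hspa8 windows 75.7% recur elsewhere, beside 0 for Hspa4, and what this does to their places was not tested. In Cnot4-null LZ, the pairs Hsp90ab1 and Hspa5, Hspa2 and Hspa4l, Hspa1b and Hspa1l, and Hspa1l and Hspa1a overlap, Hspa8 and Hsp90ab1 do not, and the order of the means is that of WT LZ. In Cnot4-null PD, Hsp90ab1 and Hspa8, which overlap, stand ahead of Hspa2, Hspa5 and Hspa4l, whose neighbours overlap, and then come Hspa4, Hspa1l, Hspa1a and Hspa1b.

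**Figure D2:**
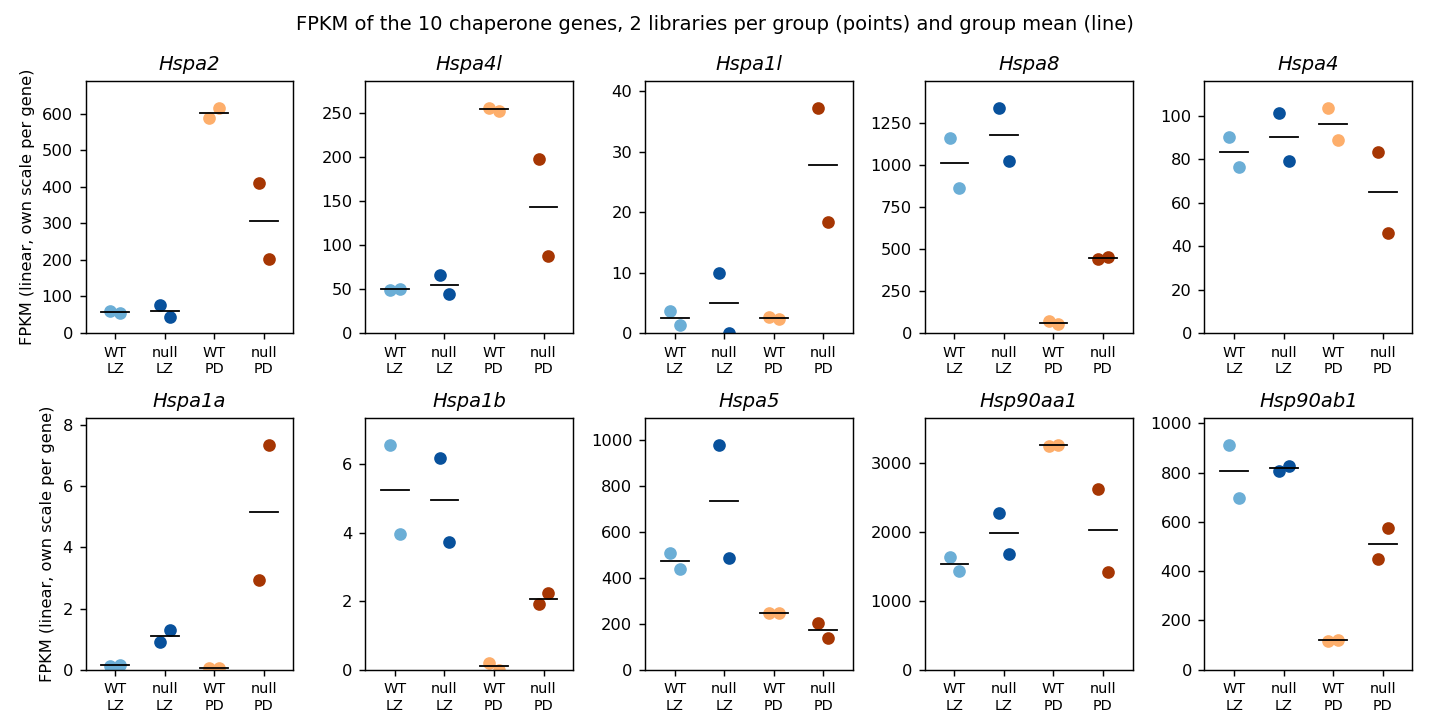
FPKM (vertical axes, linear, own scale for each gene) of the 10 chaperone genes in 4 groups, with a point for each of the 2 libraries and a line at the group mean. Hspa2 and Hspa4l stand highest in WT PD, at 589 to 615.0 and 253 to 256 FPKM, where Hspa8 stands lowest, at 53.8 to 70.6.

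Hspa2, the meiotic HSP70, measured 60.1 and 55.2 FPKM at LZ and 589 and 615.0 at PD in WT, and 76.0 and 42.9 at LZ and 411 and 203 at PD in Cnot4-null. Both PD groups lie above every LZ library, the genotypes overlap at LZ, and both Cnot4-null PD libraries lie below WT PD with a wide gap between them. In WT it rose from LZ to PD by a log2 fold change of 3.36 (SE 0.38, adjusted p 0.000241), a 10.3-fold rise, and in Cnot4-null by 2.32 (SE 0.38, adjusted p 0.00289). At PD it was lower in Cnot4-null, at -1.06 (SE 0.38, adjusted p 0.049), a call that only 4 of 16 alternatives keep: it is lost under quantile normalization and, among others, without any 1 library other than Cnot4-null PD replicate 1. Leaving out Cnot4-null PD replicate 2 moves it to -0.55, and same-median scaling to -2.49. The difference between the genotype effects at PD and LZ was not called (-1.05, adjusted p 0.173), but is under same-median scaling (-2.52) and without Cnot4-null PD replicate 1.

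Hspa4l, the germ cell exchange factor, had 49.4 and 50.01 FPKM at LZ and 256 and 253 at PD in WT, and 65.4 and 43.9 at LZ and 198 and 87.5 at PD in Cnot4-null. This is the ranking of Hspa2 on a lower scale: high in both PD groups, highest in WT PD, and with Cnot4-null PD replicate 2 the lower of its pair. The rise from LZ to PD was 2.33 in WT (SE 0.38, adjusted p 0.00136) and 1.28 in Cnot4-null (SE 0.38, adjusted p 0.028). The latter is called in 6 of 16 alternatives and lost under same-median scaling and without any 1 library other than Cnot4-null PD replicate 2, with values from 0.70 to 1.87 and an adjusted p of at most 0.164. At PD the genotypes differed by -0.94, which was not called (adjusted p 0.0693) but is under same-median scaling (-2.37), with a replicate block and without Cnot4-null PD replicate 1.

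Hspa1l, a haploid-stage HSP70, gave 3.66 and 1.33 FPKM at LZ and 2.72 and 2.28 at PD in WT, and 9.86 and 0 at LZ and 37.2 and 18.3 at PD in Cnot4-null. Only the Cnot4-null PD libraries stand apart, above all the others, and the Cnot4-null LZ pair spans the range of both WT groups. Unlike Hspa2 and Hspa4l, it showed no called stage difference in WT (0.09, SE 1.00, adjusted p 0.975). It was called higher in Cnot4-null than WT at PD (2.96, SE 1.00, adjusted p 0.0412) and from LZ to PD in Cnot4-null (3.04, adjusted p 0.0417). Both calls are weak: the first held in 6 of 16 alternatives, with adjusted p from 0.00719 to 0.205, and the second in 5 of 16, lost under same-median scaling and without any 1 library other than Cnot4-null LZ replicate 1, at values from 1.32 to 4.76. The first is lost under quantile normalization and same-median scaling, and without either WT LZ, either WT PD or either Cnot4-null PD library, the fold change staying between 1.75 and 3.45. Its difference in genotype effect between stages was not called (2.96, adjusted p 0.15). It is called without Cnot4-null LZ replicate 1 alone (4.68), and over the alternatives it goes from 1.24 to 4.68, at adjusted p from 0.0198 to 0.347.

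Hspa8, the constitutive HSP70 of the cytosol and the general counterpart of Hspa2, reached 1160.2 and 860.3 FPKM at LZ and 70.6 and 53.8 at PD in WT, and 1337 and 1022 at LZ and 440.4 and 450.1 at PD in Cnot4-null. The groups are in 3 tiers, with both LZ groups on top and overlapping, Cnot4-null PD in the middle and WT PD far below. From LZ to PD it fell by 3.996 in WT (SE 0.25, adjusted p 2.79e-05) and by 1.39 in Cnot4-null (adjusted p 0.0041). Its level at PD was higher in Cnot4-null by 2.83 (SE 0.25, adjusted p 0.000269), and the genotype effect at PD exceeded that at LZ by 2.61 (SE 0.35, adjusted p 0.0031). These 4 calls held in every alternative, and same-median scaling brings the genotype difference at PD to its lowest value, 1.41, and the difference between the effects at PD and LZ to 1.14.

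Hspa4, the general HSP110 exchange factor and counterpart of Hspa4l, stayed within a narrow band: 90.3 and 76.5 FPKM at LZ and 104 and 88.6 at PD in WT, and 101 and 79.3 at LZ and 83.3 and 46.2 at PD in Cnot4-null. Only Cnot4-null PD replicate 2 lies clearly below the rest. No comparison called it: 0.20 from LZ to PD in WT (adjusted p 0.618), -0.52 in Cnot4-null (adjusted p 0.186) and -0.62 between genotypes at PD (adjusted p 0.117). Same-median scaling calls it higher at PD in WT (1.08), lower at PD in Cnot4-null (-1.11, and -0.70 under quantile normalization), and lower in Cnot4-null than in WT at PD (-2.04). Leaving out Cnot4-null PD replicate 1 calls the latter 2 as well.

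Hsp90aa1, the inducible cytosolic HSP90, which male meiosis needs, ran at 1639 and 1431 FPKM at LZ and 3247 and 3262 at PD in WT, and 2278 and 1683 at LZ and 2620.4 and 1424 at PD in Cnot4-null. WT PD is highest and its libraries nearly coincide, and the Cnot4-null PD pair spreads across the LZ range. It rose in WT from LZ to PD by 1.09 (SE 0.33, adjusted p 0.0243), a call lost with no filter and without any 1 of the 4 WT libraries, where the value stays between 0.99 and 1.19 and the adjusted p reaches 0.135. In Cnot4-null the stage difference was -0.02 (adjusted p 0.969), and the genotypes differed at PD by -0.75 (adjusted p 0.0903). Neither was called, though same-median scaling calls the genotype difference (-2.19), as do leaving out Cnot4-null PD replicate 1 and a replicate block. Nor was the difference in genotype effect between stages called (-1.11, adjusted p 0.111), which same-median scaling (-2.59) and leaving out Cnot4-null PD replicate 1 call.

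Hsp90ab1, the constitutive cytosolic HSP90, showed 913 and 698 FPKM at LZ and 118 and 120.3 at PD in WT, and 807 and 828 at LZ and 447 and 575 at PD in Cnot4-null. As for Hspa8, the LZ groups overlap at the top, WT PD is lowest and Cnot4-null PD is between. It fell by 2.74 from LZ to PD in WT (SE 0.22, adjusted p 6.02e-05) and by 0.69 in Cnot4-null (adjusted p 0.0372). The latter is called in 7 of 16 alternatives, with adjusted p up to 0.138, and lost under quantile normalization and without either Cnot4-null LZ library, either WT PD library or Cnot4-null PD replicate 1. At PD it was higher in Cnot4-null by 2.08 (SE 0.22, adjusted p 0.000456) in every alternative, though same-median scaling leaves only 0.65. The genotype effect at PD exceeded that at LZ by 2.05 (SE 0.31, adjusted p 0.00448), a call that same-median scaling ends (0.57, adjusted p 0.178, the highest of its 15 alternatives, which start at 0.00321).

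Hspa5, the HSP70 of the endoplasmic reticulum, came to 509 and 436 FPKM at LZ and 247 and 248 at PD in WT, and 978 and 485 at LZ and 204 and 137 at PD in Cnot4-null. Every PD library is below every LZ library, and Cnot4-null LZ replicate 1 is far above the rest. It fell from LZ to PD by 2.03 in Cnot4-null (SE 0.35, adjusted p 0.00359), in every alternative. The WT stage difference of -0.93 missed the threshold (adjusted p 0.0555) and is called in 6 of 16 alternatives, quantile normalization (-1.44) and leaving out either Cnot4-null LZ library among them, while same-median scaling leaves only -0.04. No genotype difference was called, at LZ (0.55, adjusted p 0.913) or at PD (-0.56, adjusted p 0.208). Same-median scaling calls Hspa5 lower in Cnot4-null at PD (-1.99). It also calls the difference in genotype effect between stages (-2.58), which was not called on the deposited values (-1.11). Its promoter, chr2:34771940-34772089 on the plus strand in GRCm38.p6, is shown because it alone of the 7 holds the endoplasmic reticulum stress element, a CCAAT box and CCACG with 9 bases between them, which 0.113% of all promoters hold (37 of 32851). Capitals mark that element, from -65 to -47 and including a CCAAT box, and a further CCAAT box from -98 to -94. Upstream of the bases shown lie TGACGT from -157 to -152, CCAAT from -186 to -182 and ATTGG from -214 to -210.
Hspa5: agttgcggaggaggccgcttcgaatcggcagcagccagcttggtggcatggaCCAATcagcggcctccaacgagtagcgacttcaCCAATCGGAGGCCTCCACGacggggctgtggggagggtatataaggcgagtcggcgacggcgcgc

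Hspa1a, the first stress-inducible copy, was near the floor in WT: 0.120 and 0.170 FPKM at LZ and 0.0494 and 0.0452 at PD in WT, and 0.898 and 1.31 at LZ and 2.93 and 7.36 at PD in Cnot4-null. Cnot4-null libraries are above WT libraries at both stages, and Cnot4-null PD is the highest group. The difference at PD was 2.45 (SE 0.38, adjusted p 0.00201). Because this gene passed the filter only through Cnot4-null libraries, that call is given as a description and supports nothing further. The same holds for its stage call in Cnot4-null, given below. The difference at LZ was 0.87 and was not called (adjusted p 0.785). From LZ to PD it rose in Cnot4-null by 1.45 (adjusted p 0.0172), a call lost under quantile normalization, with only the libraries compared and without either Cnot4-null LZ library, with values down to 0.69 and an adjusted p of at most 0.159.

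Hspa1b, the second copy, had 6.57 and 3.95 FPKM at LZ and 0.197 and 0 at PD in WT, and 6.19 and 3.73 at LZ and 1.91 and 2.25 at PD in Cnot4-null. The LZ groups overlap and lead, WT PD is at the floor and Cnot4-null PD is between, the ranking of Hspa8 and Hsp90ab1 at a far lower level. At LZ Hspa1b is the higher copy in every library and in Cnot4-null PD the lower one. It fell by 2.48 from LZ to PD in WT (SE 0.34, adjusted p 0.000553). At PD it was higher in Cnot4-null by 1.49 (SE 0.34, adjusted p 0.00933), lost under quantile normalization (0.44) and without WT PD replicate 2, with adjusted p from 0.00311 to 0.339. The genotype effect at PD exceeded that at LZ by 1.56 (SE 0.47, adjusted p 0.0446), which only 4 of 14 alternatives keep: it is lost under quantile normalization (0.46), under same-median scaling (1.08) and without any 1 library other than WT LZ replicate 2.

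Counted over the family, 3 of the 10 genes rose and 3 fell from LZ to PD in WT, where 21.6% of all genes tested were called higher and 36.2% lower. In Cnot4-null, 4 rose (Hspa2, Hspa4l, Hspa1l and Hspa1a) and 3 fell (Hspa8, Hsp90ab1 and Hspa5) between the stages, beside 27.8% and 18.2% of all genes. Hspa1a passed the filter only through Cnot4-null libraries, so its rise here is a description and supports nothing further. Between genotypes at LZ limma called 0 of the 10 genes, and at an unadjusted p under 0.05 also 0, beside 0.0692% of all genes called higher, 0.0252% called lower and 1013 of 15899 at an unadjusted p under 0.05. At PD, Hspa1a is left out of the count, since it passed the filter only through Cnot4-null libraries. Of the other 9 genes, 4 were higher in Cnot4-null (Hspa8, Hsp90ab1, Hspa1b and Hspa1l) and 1 was lower (Hspa2), beside 41.6% and 11.5% of all genes. The genotype effect was larger at PD than at LZ for 3 genes (Hspa8, Hsp90ab1 and Hspa1b) and smaller for 0 by limma, beside 26.0% and 3.97% of all genes. At an unadjusted p under 0.05 by limma it was larger for the same 3 of the 9 and smaller for 1, Hsp90aa1 (-1.11), beside 35.7% and 8.34% of all genes. With 10 genes, these counts are near the shares of the whole table, and nothing is read from them about the family as such.

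Scaling matters for these directions, because the median log2 fold change of all genes was itself off 0: -0.32 from LZ to PD in WT, 0.19 in Cnot4-null, 0.66 between genotypes at PD and 0.64 for the difference in genotype effect. Quantile normalization moves these medians to -0.06, -0.29, -0.10 and -0.13, and scaling every library to the same median moves them to 0.05, -0.23, -0.21 and -0.30. Of all genes called between genotypes at PD, 78.3% were higher in Cnot4-null, and this share becomes 41.0% and 36.9% under the 2 scalings. Without Hspa1a, the split at PD of 4 higher and 1 lower becomes 2 and 0 by limma under quantile normalization, where 4 are lower at an unadjusted p under 0.05. It becomes 3 and 5 under same-median scaling, which adds Hsp90aa1 (-2.19), Hspa4l (-2.37), Hspa4 (-2.04) and Hspa5 (-1.99) to the lower side. For the stage comparison of all 10 genes in WT the split of 3 and 3 becomes 3 and 4, and 4 and 3, as the share of all called genes that were higher goes from 37.4% to 46.1% and 54.7%. In Cnot4-null it goes from 4 and 3 to 3 and 4, and to 2 and 5, as that share goes from 60.5% to 37.4% and 39.1%. The difference in genotype effect goes from 3 and 0 to 2 and 0 by limma, each with 1 smaller at an unadjusted p under 0.05, and to 1 and 5 under same-median scaling, with 86.8%, 44.1% and 29.8% of all called genes on the larger side. Hspa8 and Hsp90ab1 were called higher in Cnot4-null PD under each of these scalings, and Hspa2 rose and Hspa8 fell from LZ to PD in both genotypes under each.

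A ratio of 2 genes within a library does not change when the library is multiplied by a factor, apart from the 1 FPKM added to each gene. The log2 ratio of Hspa2 to Hspa8 was -4.25 and -3.94 at LZ and 3.04 and 3.49 at PD in WT, and -4.12 and -4.54 at LZ and -0.10 and -1.15 at PD in Cnot4-null. The WT libraries go from far more Hspa8 than Hspa2 at LZ to the reverse at PD, and the Cnot4-null PD libraries lie between, with more Hspa8 in both. The mean ratio is higher by 7.36 in WT PD than in WT LZ, and differs by -3.89 between Cnot4-null PD and WT PD, both far above the spread within groups, where the SD is at most 0.74. In FPKM as deposited, Hspa2 is 8.34 and 11.4 times Hspa8 in WT PD, and 0.932 and 0.450 times in Cnot4-null PD. Which gene is the higher in a library also rests on the uniquely read part of Hspa8, whose effect was not tested.

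The log2 ratio of Hspa4l to Hspa4 ran in WT from -0.86 and -0.60 at LZ to 1.30 and 1.50 at PD, and in Cnot4-null from -0.62 and -0.84 to 1.24 and 0.91. Here the exchange factors change places at PD in both genotypes, by 2.13 in WT, and Cnot4-null PD differs from WT PD by only -0.33, against SDs of 0.24 and 0.14, and by -0.49 to -0.16 without any 1 library. For Hspa1l to Hspa8 the ratio was -7.96 and -8.53 at LZ and -4.27 and -4.06 at PD in WT, and -6.95 and -10.00 at LZ and -3.53 and -4.55 at PD in Cnot4-null. Its PD groups overlap: Hspa1l and Hspa8 are both higher in Cnot4-null PD, and the mean ratio differs by 0.13, less than the SD of 0.72, and by -0.38 without Cnot4-null PD replicate 1.

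**Figure D3:**
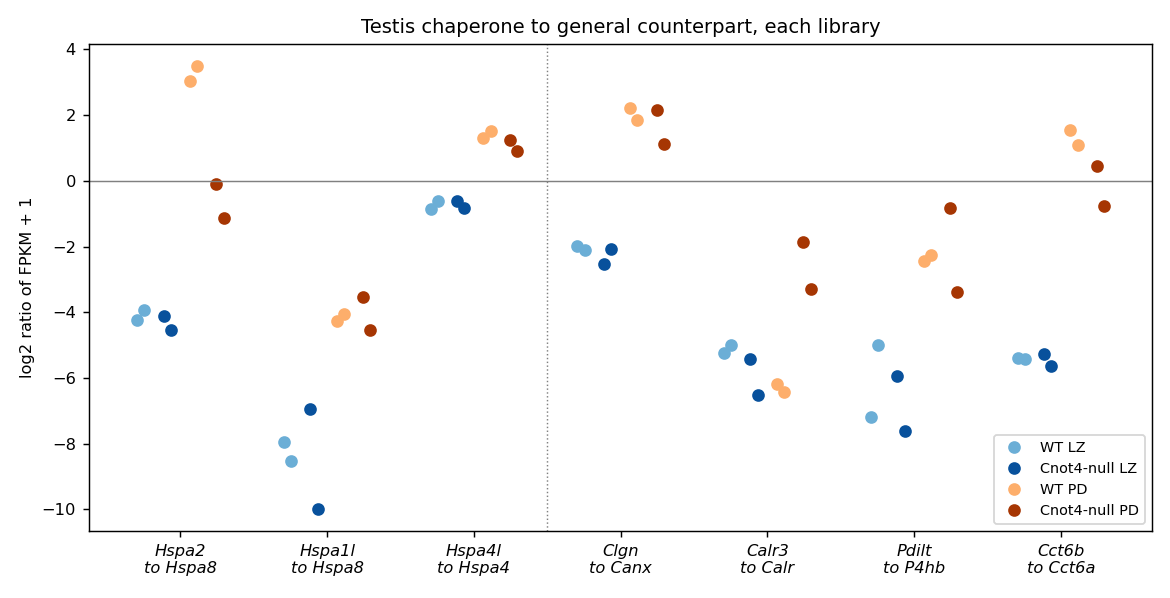
Log2 ratio of FPKM plus 1 of a testis chaperone to its general counterpart (vertical axis) in each library, coloured by group, for the 3 HSP70 pairs left of the dotted line and 4 pairs of other families right of it. Hspa2 to Hspa8 spans from -4.54 in Cnot4-null LZ to 3.49 in WT PD, with Cnot4-null PD at -0.10 and -1.15.

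The same was computed for 4 testis chaperones of other families, set against their general forms. From WT LZ to WT PD the mean log2 ratio of Clgn to Canx, lectin chaperones of the endoplasmic reticulum, went up by 4.08, that of Cct6b to Cct6a, chaperonin subunits, by 6.72, and that of Pdilt to P4hb, disulfide isomerases, by 3.75, while that of Calr3 to Calr, calreticulins, moved by -1.19. Between Cnot4-null PD and WT PD the differences were -0.39, -1.47, 0.24 and 3.72 in that order, beside -3.89 for Hspa2 to Hspa8. The SDs of the Cnot4-null PD pair were 0.72, 0.85, 1.80 and 1.01. Clgn to Canx turns to 0.12 without Cnot4-null PD replicate 2, and Pdilt to P4hb to -1.03 without replicate 1, so neither difference has a settled sign. None of the 4 reached the difference of Hspa2 to Hspa8 on the negative side. Between the WT stages Clgn (3.82) and Cct6b (5.93) themselves rose, while Pdilt was not called (0.37, adjusted p 0.738 by limma). P4hb fell (-3.38), and the SD of Pdilt to P4hb in WT LZ was 1.55. Of the 8 genes of these pairs, 2 rose and 4 fell in WT from LZ to PD (median -0.52, beside -0.32 over all genes), and 3 were higher and 1 lower in Cnot4-null PD (median 0.10, beside 0.66). The shares of all genes called were 21.6% higher and 36.2% lower in the first comparison, and 41.6% and 11.5% in the second.

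The genes whose levels follow each testis chaperone most closely over the 8 libraries were sought among 9340 genes with a mean of at least 5 FPKM, by Pearson's r of log2(FPKM + 1). For Hspa2 they were Gm14873 and Lekr1 (both 0.997), and Ube2l6, Pcbp3 and Ddit3 (each 0.996). For Hspa4l they were Larp7 (0.998), Ddt (0.997), 1700018B24Rik and H47 (both 0.996) and Kri1 (0.995). Hspa1l had looser company, led by 1700012B07Rik (0.972), 1700030F04Rik (0.968), Actrt2 and Atp1a4 (both 0.962) and Cypt15 (0.961). These values rest on n = 8 libraries in 4 groups, which all the genes share, and carry no p.

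The partners with which the 10 genes work were described from lists of the same machinery. HSP40 genes of the DNAJA and DNAJB classes, which hand clients to HSP70, had 8 of 17 higher and 2 lower at PD in WT (median 0.59, beside -0.32 over all genes), and 3 higher and 2 lower in Cnot4-null PD against WT PD (median -0.27, beside 0.66). The largest stage differences among them were those of Dnajb14 (4.69), Dnajb13 (4.36) and Dnajb2 (4.06), the largest genotype differences those of Dnajb8 (3.55), Dnajb7 (3.54) and Dnaja4 (2.90), and Dnajb6 was the most abundant. The first 3 of these rose at PD in WT, and the next 3 are called higher in Cnot4-null PD. They are named for their large called differences, so these calls show no likeness to single members. Of 8 nucleotide exchange and BAG genes, which end the HSP70 cycle, 4 were higher and 2 lower at PD in WT (median 0.41), with Bag5 (3.94), Bag3 (3.66) and Sil1 (1.50) leading, and Bag1 the most abundant. Between genotypes at PD only Bag2 was called, higher in Cnot4-null by 1.10 (list median 0.21). Beside both lists, 21.6% of all genes were called higher and 36.2% lower at PD in WT. Between genotypes at PD these shares were 41.6% and 11.5%.

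**Figure D4:**
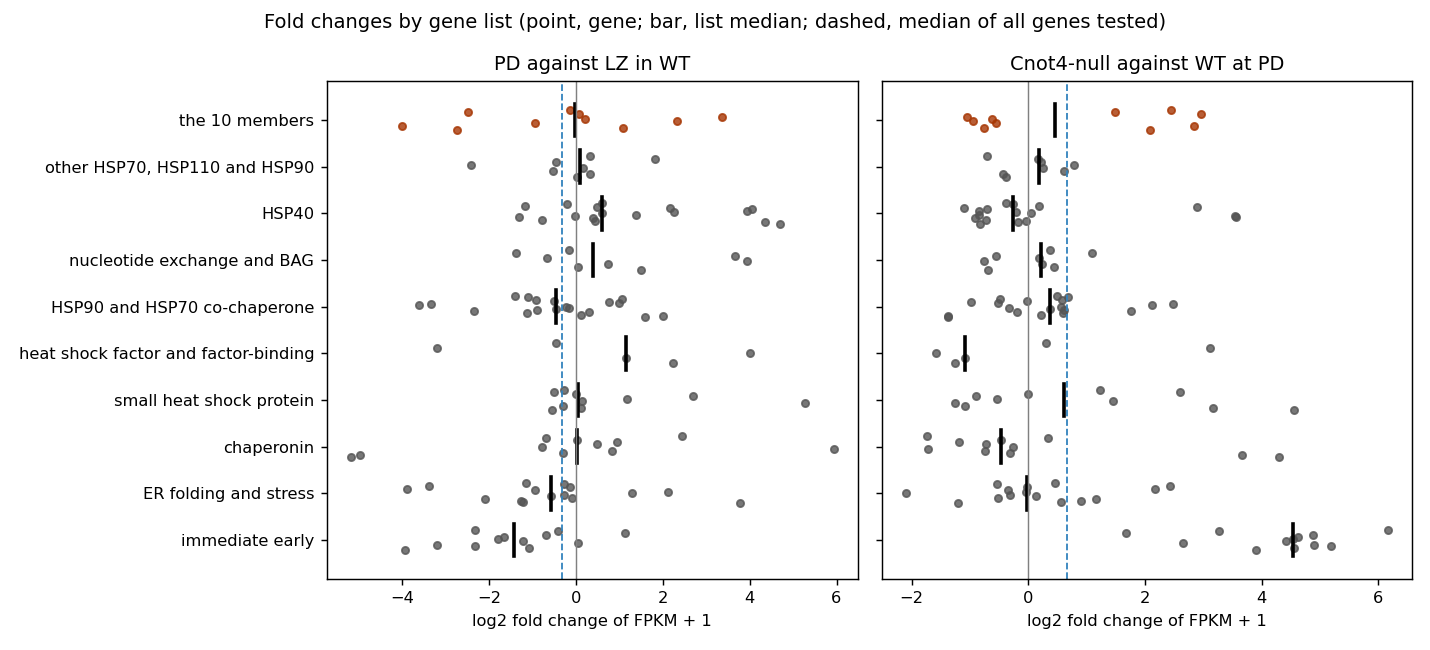
Log2 fold change of FPKM plus 1 (horizontal axes) for PD against LZ in WT and for Cnot4-null against WT at PD, a point per gene and a bar at the median of each list, with a dashed line at the median of all genes tested (-0.32 and 0.66). The 10 chaperone genes reach from -3.996 to 3.36 between stages, and 9 of the 10 immediate early genes that pass the filter without the Cnot4-null PD libraries are called higher in them, beside 41.6% of all genes. The points and bars include all genes tested, also those that pass only through 1 group.

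Among 19 co-chaperones of HSP90 and HSP70, 5 were higher and 9 lower at PD in WT (median -0.46), and 6 were higher and 3 lower in Cnot4-null PD (median 0.37). Of all genes, 21.6% were higher and 36.2% lower in the first comparison, and 41.6% and 11.5% in the second. The same genes lead in both: Fkbp6 (-3.60 between stages, 2.12 between genotypes), Fkbp5 (-3.33 and 2.49) and Unc45a (-2.33 and 1.77), immunophilins and a myosin chaperone that bind HSP90, with Ptges3, the co-chaperone p23, the most abundant. These are opposite signs, as for Hspa8 and Hsp90ab1, in comparisons that share the WT PD libraries. Of the heat shock factors tested, Hsf5 rose (4.01) and Hsf2 fell (-3.18) from LZ to PD in WT, and Hsf1 was not called (-0.46). At PD Hsf2 was higher (3.12) and Hsf5 lower (-1.59) in Cnot4-null. Hsbp1, the most abundant of this list, and Hsf2bp encode proteins that bind such factors. Both rose in WT (2.25 and 1.16) and were lower in Cnot4-null PD (-1.26 and -1.09).

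Small heat shock proteins, which hold unfolded proteins without ATP, had 3 of 10 higher at PD in WT and 0 lower by limma, also at an unadjusted p under 0.05: Hspb9 (5.27, the most abundant), Hspb6 (2.69) and Hspb7 (1.17). Hspb7 passed the filter only through PD libraries, so its call is a description and supports nothing further. In Cnot4-null PD 3 of the 10 were higher, Odf1 (4.55), Cryab (3.17) and Hspb2 (2.60), and 1 was lower. Like Hspa1a, Cryab passed the filter only through Cnot4-null libraries, so its call is a description and supports nothing further. Of 11 chaperonin genes 3 were higher and 4 lower at PD in WT (median 0.04), led by Cct6b (5.93) and the mitochondrial pair Hspe1 (-5.17, the most abundant) and Hspd1 (-4.95). That pair was higher in Cnot4-null PD, by 4.30 and 3.67, while Tcp1 was lower (-1.74), with 2 genes higher and 3 lower in all (median -0.47). Around Hspa5, 15 endoplasmic reticulum folding and stress genes gave 3 higher and 8 lower at PD in WT (median -0.56), led by Pdia4 (-3.89), Ddit3 (3.78) and P4hb (-3.38), and 3 higher and 2 lower in Cnot4-null PD (median -0.02), led by P4hb (2.44), Pdia4 (2.18) and Sdf2l1 (-2.10). Calr was the most abundant of them. Beside these lists, 21.6% of all genes were called higher and 36.2% lower at PD in WT, and 41.6% and 11.5% in Cnot4-null PD.

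The 8 remaining HSP70, HSP110 and HSP90 genes tested, among them the mitochondrial Hspa9 and the endoplasmic reticulum form Hsp90b1, the most abundant, had 1 gene called in each direction in either comparison. In WT Hspa12a was higher (1.83) and Hspa14 lower (-2.41) at PD (median 0.10), and in Cnot4-null PD Hspa14 was higher (0.78) and Hspa9 lower (-0.71; median 0.19). Hspa12a passed the filter only through PD libraries, so its call is a description and supports nothing further. Of 4 genes whose products HSPA2 is known to meet, Sycp1 (-2.01) and Ccnb1 (-1.79) were lower and Bag6 (0.75) higher at PD in WT (median -0.85), while in Cnot4-null PD Cdk1 was lower (-1.12) and Ccnb1 higher (1.04; median 0.27). Hspa2 thus rose in WT as the RNA of the synaptonemal complex protein gene Sycp1 and of Ccnb1 fell and that of Bag6 rose. Cdk1 was not called between stages in WT (0.08, adjusted p 0.846 by limma). The shares of all genes called were 21.6% higher and 36.2% lower at PD in WT, and 41.6% and 11.5% in Cnot4-null PD.

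Markers of cell types show what else differed between the libraries that set these chaperone values. Genes of any prophase stage, led by Sycp3, summed to 1511 and 1815 FPKM at LZ and 1570.4 and 1612 at PD in WT, and 3129 and 1833 at LZ and 1019 and 672 at PD in Cnot4-null, and 4 of 5 were called lower in Cnot4-null PD than in WT PD. The 8 pachytene and diplotene markers, led by Ldhc, summed to 179 and 299.6 at LZ and 11901 and 11008 at PD in WT, and 180.2 and 55.4 at LZ and 5269 and 1798 at PD in Cnot4-null, with 3 called lower there. Like Hspa2 and Hspa4l, both sums are lower in Cnot4-null PD than in WT PD, and lower in its replicate 2 than in replicate 1. The 5 leptotene and zygotene markers found, led by Stra8, gave 447 and 423 at LZ and 11.1 and 8.86 at PD in WT, and 801 and 480.3 at LZ and 250.1 and 169 at PD in Cnot4-null, and all 5 were called higher in Cnot4-null PD than in WT PD. Of all genes, 41.6% were called higher and 11.5% lower in that comparison. As for Hspa8, Hsp90ab1 and Hspa1b, every LZ library is above both Cnot4-null PD libraries, and these are above both WT PD libraries.

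Markers of cells outside the sorted stages were also higher in the Cnot4-null PD libraries. Genes that pass the filter only through those libraries had to differ, and are left out of the counts that follow, to be read beside the same 41.6%. Spermatid genes, led by Prm1, summed to 398 and 249 FPKM in WT PD and to 15676 and 7051 in Cnot4-null PD (6 of 6 called higher), after 1826 and 1494 in WT LZ and 4025 and 701 in Cnot4-null LZ. As for Hspa1l, replicate 1 is the higher of the pair in both Cnot4-null groups. Spermatogonial genes, led by Uchl1, came to 568 and 547 at LZ and 14.5 and 8.79 at PD in WT, and 359 and 495 at LZ and 280.5 and 361 at PD in Cnot4-null (6 of 6). Leydig cell genes, led by Insl3, were at 16.8 and 9.89 at LZ and 116 and 7.07 at PD in WT, and at 10.8 and 19.0 at LZ and 10021 and 22204 at PD in Cnot4-null (4 of 4, without Hsd3b1 and Lhcgr). Peritubular myoid genes, led by Acta2, gave 3.77 and 4.93 at LZ and 3.82 and 2.39 at PD in WT, and 3.26 and 1.73 at LZ and 61.6 and 279 at PD in Cnot4-null (2 of 2, without Myh11 and Cnn1).

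**Figure D5:**
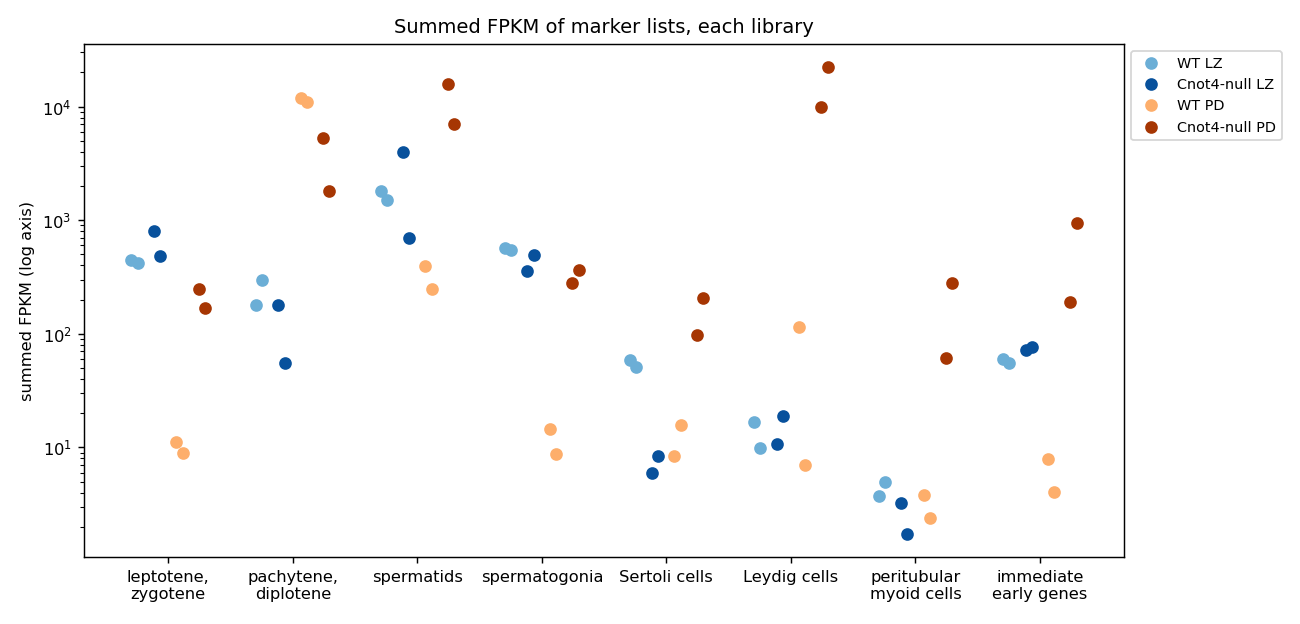
Summed FPKM of 7 marker lists and of the immediate early genes (vertical axis, log) in each library, coloured by group. The Leydig cell sum is 10021 and 22204 in Cnot4-null PD and at most 116 elsewhere, and the pachytene and diplotene sum is 11901 and 11008 in WT PD.

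Sertoli cell genes, led by Clu, summed to 58.8 and 51.1 at LZ and 8.45 and 15.9 at PD in WT, and 5.98 and 8.41 at LZ and 98.0 and 205 at PD in Cnot4-null, with 2 of 3 called higher at PD (without Gata4), Fshr at 0 in both PD groups and Amh at 0 in WT PD. Macrophage genes, led by Lyz2, gave 20.4 and 1.03 at LZ and 2.2 and 2.82 at PD in WT, and 5.25 and 4.27 at LZ and 16.2 and 57.2 at PD in Cnot4-null (1 of 3, without Emr1 and Csf1r). Endothelial and blood genes, led by Cdh5, summed to 0.123 and 0 at LZ and 0.0677 and 0.116 at PD in WT, and 0.384 and 0.223 at LZ and 1.42 and 5.44 at PD in Cnot4-null, with the globin genes Hbb-b1 and Hba-a1 at 0 in all 8 libraries. Cdh5, the 1 gene of these tested, passes only through Cnot4-null PD. Immediate early genes, which respond within minutes to handling, heat and growth factors as Hspa1a and Hspa1b do to heat, were led by Fos and summed to 59.6 and 54.9 at LZ and 7.99 and 4.01 at PD in WT, and 71.6 and 77.0 at LZ and 193 and 948 at PD in Cnot4-null. At PD 9 of 10 were called higher in Cnot4-null (without Fosb and Atf3), led by Fos (6.17), Zfp36 (5.18) and Dusp1 (4.89), where 41.6% of all genes were. From LZ to PD in WT 3 of these fell, Btg2 most (-3.94), beside 36.2% of all genes. By limma 0 of them rose, also at an unadjusted p under 0.05, beside 21.6% of all genes called higher. In Cnot4-null PD, replicate 2 is the higher for the immediate early sum and for Hspa1a. It is also the higher for Hspa1b, Hspa8 and Hsp90ab1, and for the Leydig, myoid, Sertoli and macrophage sums. For the remaining chaperone genes described here it is the lower. The sort by Hoechst and propidium iodide is meant to leave out cells of other stages and types. What part such cells and the immediate early response have in the levels of the 10 chaperone genes was not tested.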

How the data were processed

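The authors deposited FPKM per gene for 8 libraries. The submitters' processing notes name TopHat2 2.1.1, Cufflinks 2.2.1 and the mm9 build. Gene symbols were matched exactly. Genes above 1 FPKM in at least 1 library (15899) were tested with limma 3.58.1 in R 4.3.3 on log2(FPKM + 1), with 4 group means, 4 residual degrees of freedom, an intensity trend in the variance, 5 contrasts, two-sided, and Benjamini-Hochberg adjustment over all genes tested. Tables, sequence searches and figures used Python 3.11.15, numpy 2.4.6, pandas 2.3.3, numba 0.67.0 and matplotlib 3.10.9, with GENCODE vM1 positions and RefSeq promoters. The code was tested on simulated data. Besides the 10 genes, the text names genes of 11 other lists, the HSPA2 partners and immediate early genes included, and the 5 closest correlates of each testis gene. From most lists these are the most abundant gene and up to 3 called genes with the largest fold change in each of 2 comparisons. Exceptions are Hsf1, not called, and Hsf2bp, and the pairs of other families, whose genes are all named as pairs. Of the immediate early genes only Btg2 is named for the stage comparison in WT. Markers of 10 cell types were summed. Members and lists were chosen with earlier results of these data known. Alternatives were no filter, a mean of at least 5 FPKM, a pseudocount of 0.1, quantile normalization, same-median scaling, no trend, a replicate block, only the libraries compared, a threshold of 0.01, and leaving out each library. The files hold no read counts, and the total reads in the study's supplement were not used here. Duplicates had Spearman correlations from 0.892 to 0.968.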

Additional observations from a re-analysis of the deposited data

Results flagged for a closer look

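For Hspa8 the genotype effect at PD exceeded that at LZ by 2.61 on the log2 scale (1.14 with all libraries scaled to the same median), a difference between stages that was itself tested. For Hsp90ab1 the same difference between the effects at the 2 stages was 2.05 (0.57 and no longer called with the same median). For Hspa1b it was 1.56, a call kept by only 4 of 14 alternatives: it is lost under quantile normalization (0.46), with the same median (1.08), with no filter and without any 1 library other than WT LZ replicate 2.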

How the results depend on the processing

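Between genotypes at LZ, limma called 0 of the 10 genes under every alternative, and 0 at an unadjusted p under 0.05 on the values as deposited. In WT, the 6 genes called between stages became 5 to 7 without any 1 library. In Cnot4-null, the 7 genes called between stages became 4 with no filter, 3 with only the libraries compared, 3 at an adjusted p under 0.01, and 3 to 6 without any 1 library, the lowest without Cnot4-null LZ replicate 2. The count over all genes moved too, from 7316 to 6418, 3955 and 4286 under the first 3 of these. Between genotypes at PD, the 6, Hspa1a included, became 3 under quantile normalization and 3 to 8 without any 1 library, 3 without WT PD replicate 2, as the count over all genes went from 8449 to 6913 and, without that library, 4057. For the difference in genotype effect, the 3 became 6 with the same median and 2 to 7 without any 1 library, 7 without Cnot4-null PD replicate 1, as the count over all genes went from 4770 to 7306 and, without that library, 7929. The Hspa1l to Hspa8 ratio of Cnot4-null PD less WT PD, 0.13, turned to -0.38 without Cnot4-null PD replicate 1 (range -0.38 to 0.63). Fewer genes pass a stricter threshold by construction; for the other changes the cause was not tested. A replicate block, which pairs libraries by number although the numbers pair no samples, called 7, 7, 0, 8 and 3 genes in the 5 comparisons (9085, 7128, 16, 8298 and 4355 over all genes), adding Hspa5 between stages in WT, and Hspa4l and Hsp90aa1 between genotypes at PD. Deviations of same-numbered libraries correlated by -0.0651 to 0.194. Where a group is left with 1 library, it is assumed to vary like the other groups. Genes under 1 FPKM, such as Hspa1a in WT, have fold changes that depend on the pseudocount.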
